A study of Homo sapiens with 7 samples.

Results

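The genes described here carry antigen presentation by major histocompatibility complex (MHC) class I. They were taken by name from the deposited gene tables: every gene whose symbol begins with RT1-, the name of the rat MHC, and 13 named genes of antigen processing and of the class II arm. This gave 46 genes, 33 of them RT1 genes, among 21779 gene symbols in all. RNA sequencing libraries came from 4 samples given PTH (parathyroid hormone) and 3 samples given PBS as the control. All were labelled as LX2, an established human line of hepatic stellate cells, the liver cells that make scar matrix when activated. The labels name no genetic change in the line. The sources used here give neither the dose of PTH nor the time. The tables hold rat gene identifiers throughout, so rat symbols are used. The submitters' processing notes name mm8, a mouse build. Labels, identifiers and notes thus name different species, and the species of the cells was not settled here.

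MHC class I molecules show peptides from inside the cell to CD8 T cells, and nearly all nucleated cells make them. A heavy chain pairs with beta-2 microglobulin (B2m) and is filled in the endoplasmic reticulum: the proteasome cuts proteins into peptides, the TAP transporter carries the peptides in, tapasin helps to load them, and ERAP1 trims them. Interferons raise most of these genes together, in part through NLRC5, a transcriptional activator of class I promoters. Class II molecules are made mainly by professional antigen-presenting cells, under the activator CIITA.

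Values are FPKM as deposited, a fragment count per transcript length and sequencing depth. Genes that averaged 1 FPKM or more across the 7 libraries were called expressed and tested on log2(FPKM + 1) with limma, and fold changes below are on that scale, PTH over PBS. A gene was said to rise or fall at a Benjamini-Hochberg adjusted p under 0.05 over all 10661 genes tested. The number of fragments behind a value is unknown. Nothing in the labels tells whether cultures were separate, and the p-values therefore reflect only library-to-library spread, which may be technical. Summed FPKM ran from 472621 to 509859 in the PTH libraries and from 519845 to 532909 in the PBS libraries. Mitochondrial mRNAs took 0.867, 3.61, 2.40 and 3.03% of that sum in PTH libraries 1 to 4, and 5.78 to 5.90% in the PBS libraries. Of 13 stellate and myofibroblast markers 12 were found and 9 averaged 1 FPKM or more, with Lrat and Reln listed at 0 throughout. Their summed level, carried by Vim and Col1a1, was 1364 to 1850 FPKM with PTH and 1087 to 1164 FPKM with PBS. Acta2 averaged 1.59 FPKM with PTH and 0.919 FPKM with PBS, while Dcn averaged 1.27 FPKM with PTH and 3.14 FPKM with PBS and Hand2 0.529 FPKM with PTH and 1.70 FPKM with PBS. Of 12 leukocyte markers 11 were found, and only Cd14 had a mean that reached 1 FPKM, while Cd68 had up to 2.39 FPKM in single libraries. The pan-leukocyte gene Ptprc and the lymphocyte genes Cd3e and Cd79a were listed at 0 in all libraries, and the summed leukocyte list ran from 13.7 to 19.4 FPKM with PTH and from 15.3 to 21.6 FPKM with PBS.

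Of the 46 genes 29 were expressed and 11 were listed at 0 in all libraries. The expressed genes were 17 of the 23 class I chain genes, 1 of the 10 class II chain genes, and 11 of the 13 others. Psme1 and Psme2, among those 11, are given by their level alone, which leaves 27 genes for the comparison. B2m fell and the heavy chain RT1-CE1 rose, so 1 of 27 was called in each direction, against 3.45% of all tested genes higher and 7.96% lower. At an unadjusted limma p under 0.05, 7 were higher and 3 lower, where all tested genes gave 12.2% higher and 21.7% lower. PTH and PBS libraries did not overlap for 10 of the 27, with 7 above and 3 below PBS, against 12.7% and 20.8% of all tested genes. The median log2 fold change was 0.05 over the 27 genes and -0.04 over all tested genes. Among the calls over all genes 30.2% were higher, a share that became 53.7% after quantile normalization, 51.6% after median centring, 65.2% after scaling to the same FPKM sum and 46.7% after the GC correction given at the end.

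**Figure D1:**
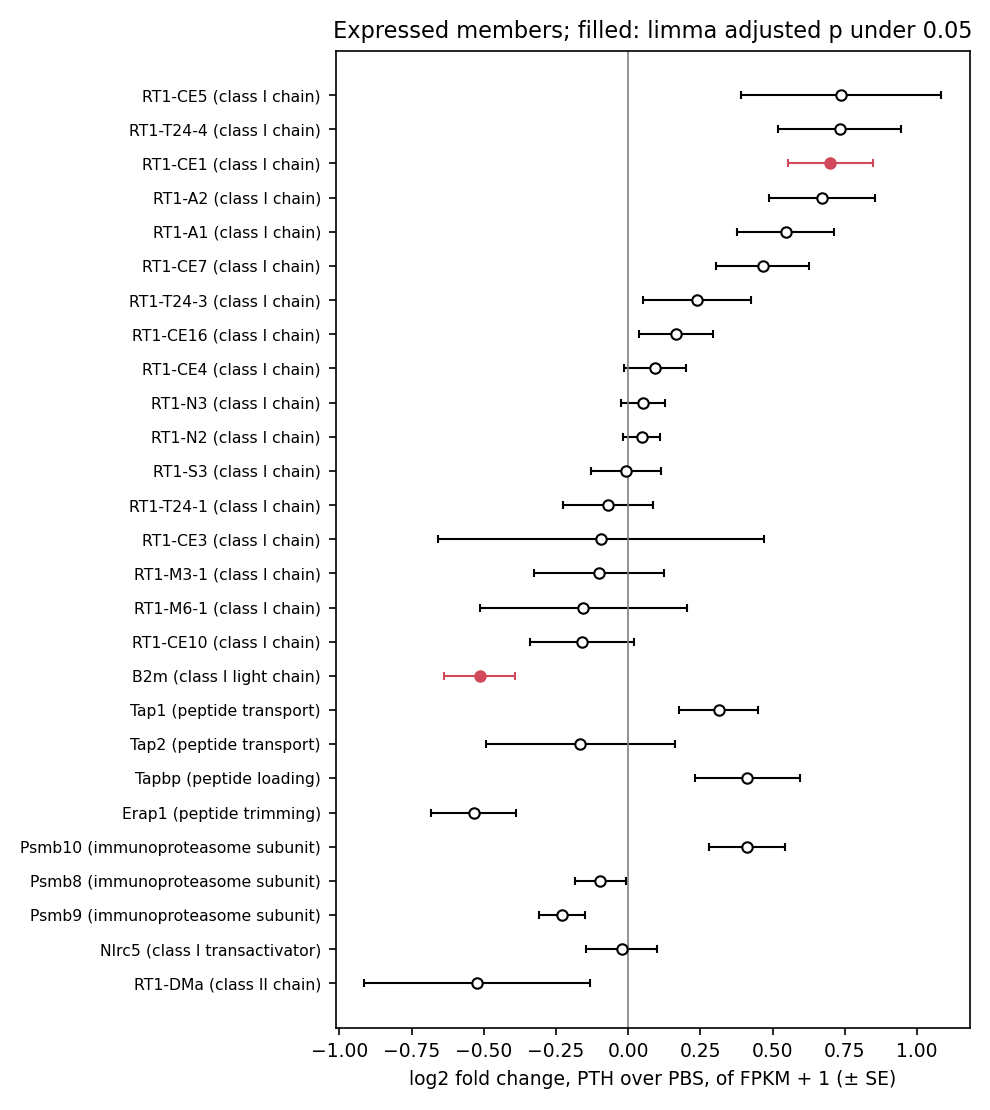
Log2 fold change of FPKM + 1, PTH over PBS, for the 27 expressed genes compared, ordered by role (points, fitted value; bars, SE; filled points, limma adjusted p under 0.05). RT1-CE1 at 0.70 and B2m at -0.51 are the filled points, and the 17 class I chains run from 0.74 for RT1-CE5 to -0.16 for RT1-CE10.

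The promoters of the human counterparts show one feature that many of these genes share. RefSeq promoter windows of build GRCh38.p14, from 250 bases before to 50 after the start site, were found for 10 of the 11 expressed genes that are not RT1 genes. They stand for the labelled species, and no rat promoter was used here. The core of the interferon-stimulated response element, GAAA and GAAA with any 2 bases between them, on either strand, was in 8 of these 10 windows, against 3.65% of 27305 human promoters. The genes with it were B2M, TAP1, TAP2, TAPBP, ERAP1, PSMB10, PSME1 and PSME2, and the letters were not found in the windows of PSMB8 and PSMB9. Their fold changes differ in sign here, which is why their sites are shown. For B2M the whole window at chr15:44711267-44711566, plus strand, is given, with 2 overlapping matches in capitals.

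B2M: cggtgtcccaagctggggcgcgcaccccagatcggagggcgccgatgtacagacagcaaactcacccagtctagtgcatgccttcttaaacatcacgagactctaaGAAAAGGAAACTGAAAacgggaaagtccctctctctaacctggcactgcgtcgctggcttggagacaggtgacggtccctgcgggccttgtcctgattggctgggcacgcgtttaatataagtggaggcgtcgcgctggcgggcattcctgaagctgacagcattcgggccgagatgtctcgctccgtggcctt

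For the other genes compared the matches are given in capitals with 15 bases on each side, each read along its gene. The positions are chr6:32853808-32853853 for TAP1, chr6:32838773-32838812 for TAP2, chr6:33314068-33314113 for TAPBP, chr5:96807919-96807958 for ERAP1 and chr16:67936847-67936886 for PSMB10, all on the minus strand. The element reads as TTTC repeats in TAP1 and ERAP1 because it lies on the opposite strand there.
TAP1: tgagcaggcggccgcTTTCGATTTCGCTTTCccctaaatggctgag
TAP2: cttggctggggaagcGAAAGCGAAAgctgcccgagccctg
TAPBP: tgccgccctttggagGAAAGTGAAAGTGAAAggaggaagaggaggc
ERAP1: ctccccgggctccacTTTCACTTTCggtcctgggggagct
PSMB10: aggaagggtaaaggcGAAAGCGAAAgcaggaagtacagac

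Other motifs were closer to their share in all promoters. The NF-kB pattern, GGG and CC with any 5 bases between them, on either strand, was in 7 of the 10 windows against 58.0% of all promoters. The cAMP-response core TGACG, on either strand, was in 4 of 10 against 25.0%, and the CCAAT box, on either strand, was in 4 of 10 against 35.7%. None of these matches overlapped the interferon element in the 10 windows.

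The light chain B2m (ENSRNOG00000017123) had the highest level of the 46 genes and was lower in every PTH library. It had 601, 893, 762 and 779.6 FPKM in PTH libraries 1 to 4, against 1076, 1082 and 1063 FPKM in PBS libraries 1 to 3. The highest PTH library thus lay below the lowest PBS library, and PTH library 1 was the lowest of all. The means were 759 ± 120.2 FPKM with PTH and 1074 ± 9.89 FPKM with PBS (SD, n = 4 and 3), a ratio of 0.707. The log2 fold change was -0.51 ± 0.12 (SE), with a limma adjusted p of 0.0391 within a range of 9.78e-06 to 0.158 over the other settings. The low end came with sample weights, a setting that called 3108 genes higher and 4309 lower of 10661 tested. Passing with sample weights, here and below, therefore says little about a single gene. The call of B2m was lost when any PBS library (1, 2, 3) or PTH library 3 or 4 was left out (adjusted p of 0.158, 0.125, 0.102, 0.106 and 0.0643), while the log2 fold change stayed between -0.60 and -0.41 whichever library was left out. It was also lost without a filter on low values (adjusted p of 0.0561), after quantile normalization (0.0561) and after scaling to the same FPKM sum (0.0554). The authors' deposited table lists B2m at a log2 fold change of -0.50, with 6.51e-04 as its FDR. In bulk libraries, fewer cells that express a gene and less RNA per cell cannot be told apart.

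The heavy chains are the part of the class I molecule that holds the peptide. In the rat the RT1-A genes encode classical class Ia chains. The deposited tables describe RT1-M3-1, RT1-N3 and RT1-S3, among others, as class Ib, and the RT1-CE and RT1-T24 genes simply as class I. RT1-CE1 (ENSRNOG00000050183) rose. It had 45.6, 36.0, 33.0 and 29.6 FPKM in PTH libraries 1 to 4, against 21.5, 19.1 and 24.2 FPKM in the PBS libraries. Every PTH library was above every PBS library. The means were 36.1 ± 6.87 FPKM with PTH and 21.6 ± 2.56 FPKM with PBS (SD, n = 4 and 3). The log2 fold change of 0.70 ± 0.15 (SE) had a limma adjusted p of 0.0332. Over the other settings the adjusted p ranged from 2.35e-05, again with sample weights, to 0.144. RT1-CE1, too, lost its call when any PBS library (1, 2, 3) or PTH library 3 was left out (adjusted p of 0.144, 0.118, 0.0766 and 0.0891). In the authors' deposited table RT1-CE1 has an FDR of 0.582. Many RT1 class I genes are closely related copies, and the sources used here do not tell how fragments were shared among them, so the value of a single class I chain is uncertain.

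The classical genes RT1-A2 and RT1-A1 were higher in all PTH libraries but did not pass the test. RT1-A2, the most abundant RT1 gene, had 258, 143, 227 and 175 FPKM in PTH libraries 1 to 4, against 128, 126 and 114 FPKM in the PBS libraries. Its log2 fold change was 0.67 ± 0.18 (SE) with a limma adjusted p of 0.0518, just outside the threshold. RT1-A1 had 73.2, 42.7, 56.3 and 46.4 FPKM in the PTH libraries, against 34.6, 36.8 and 37.7 FPKM in the PBS libraries, and its log2 fold change of 0.54 ± 0.17 (SE) had an adjusted p of 0.0663. The groups did not overlap for either gene, and PTH library 1 was the highest and PTH library 2 the lowest of the PTH libraries for each. RT1-A1 passed at the same FPKM sum (limma adjusted p of 0.0457), with sample weights (1.81e-05) and without PTH library 1 (0.0495) or 2 (0.0250). The authors' deposited table calls both, with FDR values of 6.51e-04 for RT1-A2 and 0.0125 for RT1-A1. RT1-A2 passed at a mean of at least 5 FPKM (adjusted p of 0.0458), after quantile normalization (0.0416), after median centring (0.0482), after scaling to the same FPKM sum (0.0410), with sample weights (1.81e-05) and without PTH library 2 (0.0108). Most tested genes pass with sample weights.

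RT1-T24-4, RT1-CE7 and RT1-CE5 followed the same order of PTH libraries. RT1-T24-4 had 37.0, 17.9, 27.8 and 25.8 FPKM in PTH libraries 1 to 4, against 13.4, 15.5 and 17.6 FPKM in the PBS libraries, and RT1-CE7 had 139.8, 83.2, 108 and 92.6 FPKM against 74.6, 80.4 and 70.0 FPKM. Neither overlapped between groups, and neither passed, at limma adjusted p of 0.0580 and 0.0886. Both passed with sample weights (adjusted p of 1.81e-05 for RT1-T24-4 and 3.80e-05 for RT1-CE7) and without PTH library 2 (0.0108 and 0.0306), and RT1-T24-4 also at the same FPKM sum (0.0468). RT1-CE5 had the highest log2 fold change of the 27 genes, at 0.74 ± 0.35 (SE), but 110.3 FPKM in PTH library 1 and 57.8 and 47.4 FPKM in PTH libraries 3 and 4 stood beside 31.4 FPKM in PTH library 2, against 33.8, 32.4 and 32.7 FPKM with PBS. PTH library 2 thus lay below all PBS libraries for this gene, whose adjusted p was 0.173. Its log2 fold change was 0.41 without PTH library 1 and 1.005 without PTH library 2, where it passed at an adjusted p of 0.0390.

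**Figure D2:**
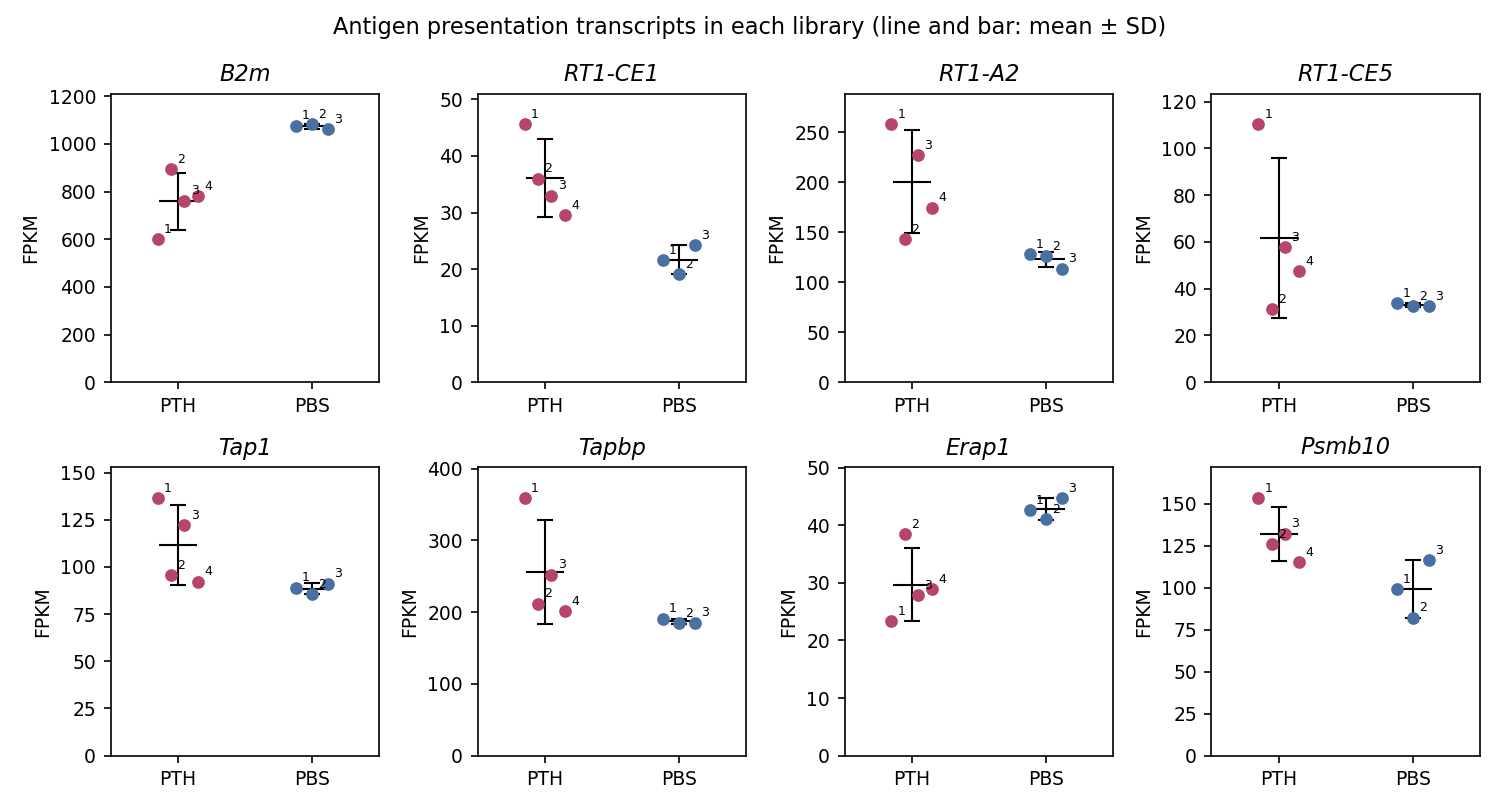
FPKM of 8 genes in each library (points, numbered by library; line and bar, mean ± SD; PTH n = 4, PBS n = 3; each axis starts at 0). B2m and Erap1 lie below PBS in all PTH libraries, RT1-CE1, RT1-A2, Tap1 and Tapbp lie above it, and for RT1-CE5 PTH library 2 at 31.4 FPKM lies just below the PBS values.

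The remaining heavy chains were close to their PBS levels or scattered. RT1-CE16 had 197, 140.1, 155 and 131 FPKM in PTH libraries 1 to 4, against 133, 137 and 142 FPKM with PBS, so that PTH library 4 lay below the PBS values and PTH libraries 1 and 3 above them. A second, weaker row of the same symbol averaged 14.0 FPKM and was not tested by itself. It had 22.0, 9.41, 18.8 and 17.3 FPKM in PTH libraries 1 to 4, against 9.87, 12.1 and 8.28 FPKM with PBS. Only PTH library 2 lay within the PBS range there. With both rows summed the log2 fold change of RT1-CE16 was 0.21 (limma adjusted p of 0.285). RT1-N3 had 153, 129.5, 133 and 134 FPKM in the PTH libraries, against 135, 125 and 137 FPKM with PBS, and only PTH library 1 stood outside the PBS range. RT1-CE4, RT1-N2 and RT1-S3 averaged 95.6 to 110.5 FPKM over all libraries, with log2 fold changes of 0.09, 0.05 and -0.01. RT1-T24-3 and RT1-T24-1 averaged 26.3 and 16.8 FPKM with log2 fold changes of 0.24 and -0.07. Without PTH library 1 the log2 fold change of RT1-T24-3 was 0.08, and that of RT1-CE16 was 0.05, against 0.17 with it. RT1-CE10, RT1-M3-1, RT1-CE3 and RT1-M6-1 averaged 8.07 to 12.3 FPKM with log2 fold changes of -0.16, -0.10, -0.09 and -0.15. The limma adjusted p of these 11 genes lay between 0.388 for RT1-CE16 and 0.974 for RT1-S3. RT1-CE3 was the least even, with 19.8, 8.27, 8.03 and 1.75 FPKM in the PTH libraries and 6.84 to 8.65 FPKM with PBS.

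Of the 17 expressed heavy chains 11 had a log2 fold change above 0, or 12 to 13 under the other scalings of the libraries. Among all tested genes 44.6% did without such scaling, and their share under it was not counted. The median log2 fold change of all tested genes was -0.04 without scaling. It was 0.02 after quantile normalization, 0.03 after median centring and 0.05 at the same FPKM sum. PTH library 1 was the highest PTH library for 15 of the 17 and the lowest for none. Among all tested genes it was the highest for 37.1% and the lowest for 32.2%. Because fragments may be shared among these related copies, the 17 are not separate observations. The median difference of the 17 from the PBS mean was 0.69 in PTH library 1 on the log2 scale and 0.08, 0.07 and -0.06 in PTH libraries 2 to 4. Over all tested genes that median was -0.02, -0.00, -0.04 and -0.10 in the same libraries. Without PTH library 1 the median log2 fold change of the 17 was 0.04, against 0.09 with it, and 9 of the 17 were above 0. Without PTH library 4 it was 0.24, and 16 of the 17 were above 0. RT1-A2, RT1-A1, RT1-CE5, RT1-CE7 and RT1-T24-4 ran from high to low as PTH libraries 1, 3, 4 and 2, the reverse of the order of their mitochondrial mRNA shares, an order shown by 9.37% of all tested genes. B2m and Erap1 ran in the opposite order, as did 11.8% of all tested genes. The part of the mitochondrial share in these values was not tested.

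**Figure D3:**
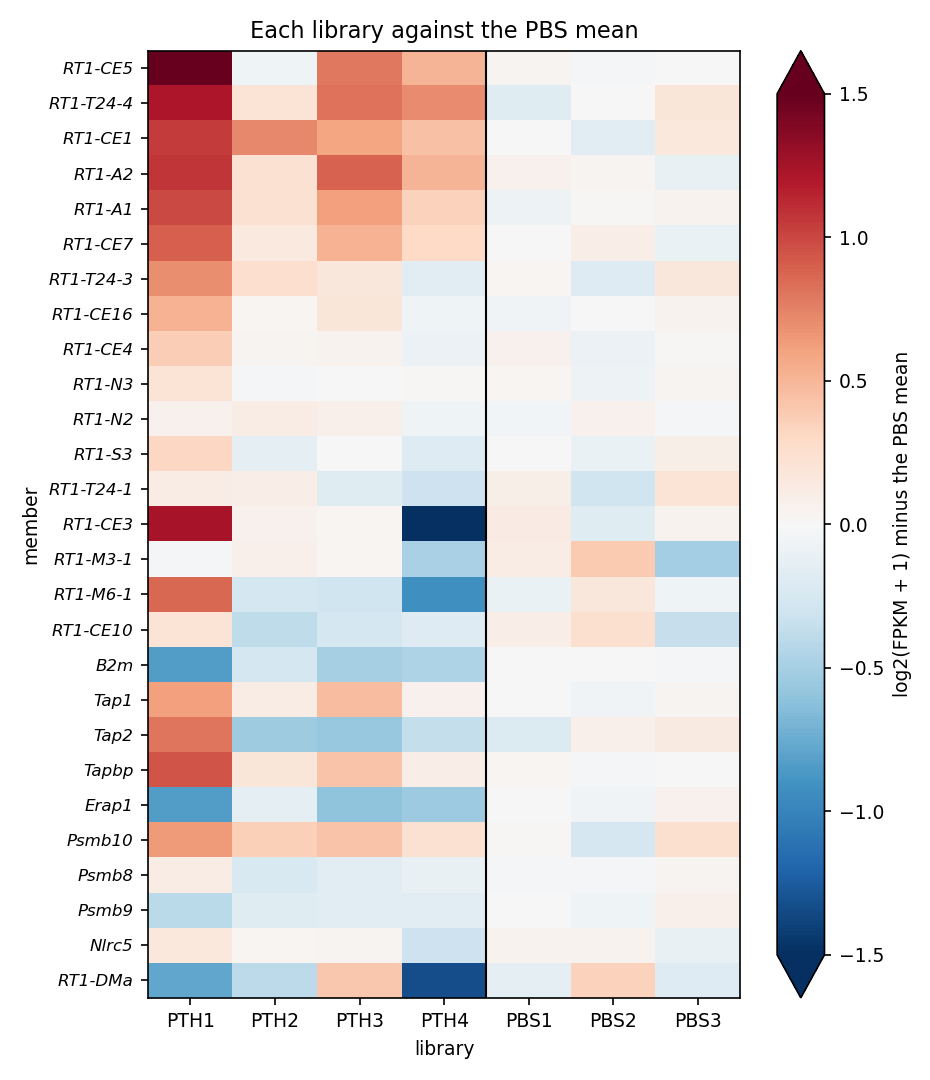
Difference of log2(FPKM + 1) from the PBS mean for the 27 genes compared (rows) in each library (columns; red above, blue below the PBS mean; colours end at 1.5 in either direction). The heavy chains at the top are reddest in PTH library 1, and B2m and Erap1 are blue in all PTH libraries.

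Because fragments may be shared among RT1 genes, the sum over all class I rows is given beside the single rows. How such fragments were counted is unknown, so the sum may be affected too. This sum was 1512, 1017, 1203 and 1035 FPKM in PTH libraries 1 to 4, against 971, 957 and 968 FPKM in the PBS libraries. All PTH libraries lay above PBS, PTH libraries 2 and 4 by little. The sum divided by the FPKM of B2m was 2.52, 1.14, 1.58 and 1.33 in the PTH libraries, against 0.902, 0.884 and 0.911 in the PBS libraries. Since the sum lay above PBS and B2m below it in every PTH library, this ratio had to separate the groups and is no further evidence. It averaged 1.64 ± 0.611 with PTH and 0.899 ± 0.0136 with PBS (SD, n = 4 and 3).

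**Figure D4:**
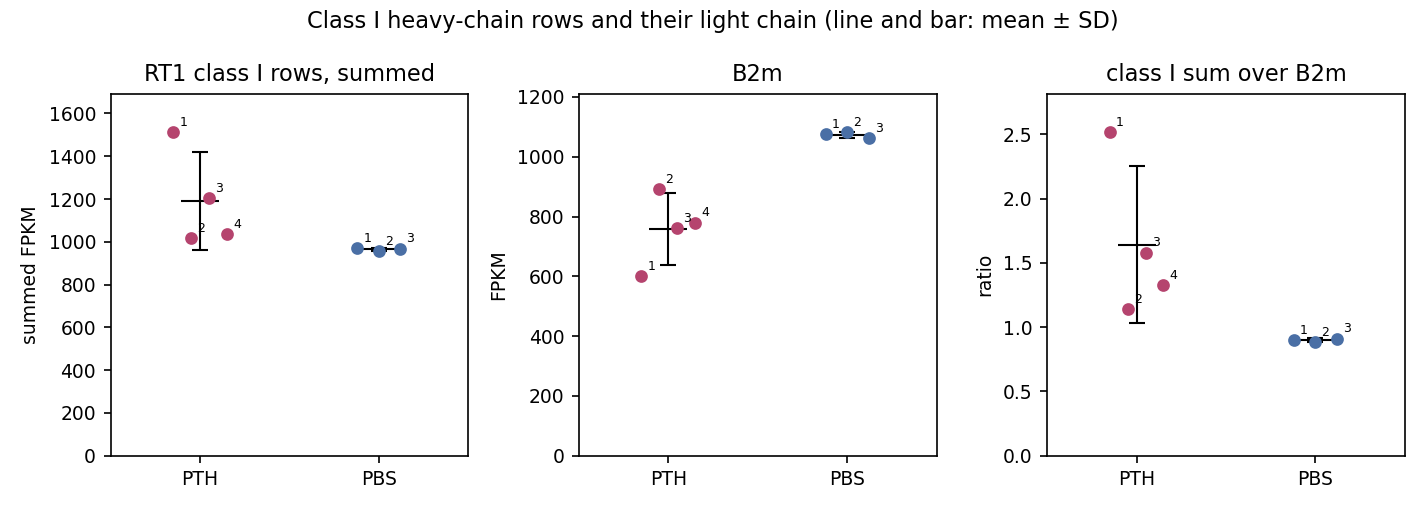
Summed FPKM of the RT1 class I rows, FPKM of B2m, and the ratio of the first to the second, in each library (points, numbered by library; line and bar, mean ± SD; PTH n = 4, PBS n = 3). The ratio lies between 1.14 and 2.52 in the PTH libraries and between 0.884 and 0.911 in the PBS libraries.

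Of the class I chains that were not expressed, RT1-M2, RT1-M4, RT1-M5, RT1-M6-2 and RT1-S2 were listed at 0 in all libraries. RT1-CE6 held values between 1.06e-130 and 1.27e-11 FPKM, far too small to stand for a fragment, and the log2 fold change of 163 in the authors' deposited table divides such values.

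Among the genes that load peptides, Tapbp and Tap1 were higher and Erap1 lower in all PTH libraries, without passing the test. Tapbp encodes tapasin, which holds the empty heavy chain at the transporter. It had 359, 212, 252 and 201 FPKM in PTH libraries 1 to 4, against 191, 185 and 186 FPKM with PBS. Its log2 fold change was 0.41 ± 0.18 (SE), with a limma adjusted p of 0.149, and 0.24 without PTH library 1. Tap1, which forms the peptide transporter with Tap2, had 137, 95.7, 122 and 92.2 FPKM in the PTH libraries, against 89.0, 85.4 and 91.2 FPKM with PBS, and a log2 fold change of 0.31 ± 0.14 (SE) with an adjusted p of 0.147. In both genes PTH library 1 was far above PBS and PTH library 4 only just above it. Erap1, the aminopeptidase that trims peptides to fit, had 23.4, 38.4, 27.9 and 28.9 FPKM with PTH, against 42.5, 41.0 and 44.7 FPKM with PBS. Its log2 fold change was -0.54 ± 0.15 (SE) with an adjusted p of 0.0516, so it too stood just outside the threshold. Erap1 passed with a pseudocount of 5 (limma adjusted p of 0.0490), at a mean of at least 5 FPKM (0.0453), with sample weights (1.39e-05) and without PTH library 2 (0.00697). Tap2 was far less abundant than Tap1, at 9.47, 3.12, 3.03 and 3.66 FPKM in PTH libraries 1 to 4 against 4.21, 5.28 and 5.54 FPKM with PBS. PTH library 1 was above all PBS libraries for Tap2 and the other PTH libraries were below them (log2 fold change of -0.17 ± 0.33, SE, and adjusted p of 0.751). Its log2 fold change was -0.49 without PTH library 1. The authors' deposited table calls Tapbp (FDR of 0.00115), Tap1 (0.0388) and Erap1 (6.51e-04).

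The 3 immunoproteasome subunits, which replace catalytic subunits of the ordinary proteasome under interferon, did not share a direction. Psmb10 had 154, 126, 132 and 115 FPKM in PTH libraries 1 to 4, against 99.1, 82.2 and 116 FPKM with PBS. Its log2 fold change was 0.41 ± 0.13 (SE) with a limma adjusted p of 0.0734, and PTH library 4 overlapped the PBS range. Psmb9 had 85.6, 99.7, 102 and 101 FPKM with PTH, against 113, 108 and 119.5 FPKM with PBS, all PTH libraries below PBS, and its log2 fold change was -0.23 ± 0.08 (SE) with an adjusted p of 0.0871. Psmb8 had 84.4, 66.1, 69.3 and 71.8 FPKM with PTH, against 76.9, 76.4 and 79.99 FPKM with PBS, a log2 fold change of -0.10 ± 0.09 (SE) with an adjusted p of 0.463. For Psmb8 PTH library 1 was above PBS and the other PTH libraries were below it. Psmb10 passed after quantile normalization, after scaling to the same FPKM sum and with sample weights, and the authors' deposited table calls it (FDR of 6.51e-04) and neither of the other subunits. Psme1 and Psme2 encode the proteasome activator PA28. They averaged 329 and 188 FPKM over the 7 libraries, within 303 to 381 FPKM and 162 to 218 FPKM.

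Tap1 and Psmb9 differ in direction although their human counterparts lie back to back. The 2 RefSeq promoter windows, chr6:32853655-32853954 on the minus strand for TAP1 and chr6:32853942-32854241 on the plus strand for PSMB9, share 13 bases. The interferon element of TAP1, within chr6:32853808-32853853, lies between the 2 start sites but beyond the edge of the PSMB9 window. Its absence from the PSMB9 window thus depends on where that window ends. Within each library the ratio of Tap1 to Psmb9 was 1.59, 0.959, 1.20 and 0.916 in PTH libraries 1 to 4, against 0.786, 0.788 and 0.763 in PBS libraries 1 to 3. With Tap1 above PBS and Psmb9 below it in all PTH libraries, this ratio could not overlap and is no further evidence. Tap1 and Psmb9 each missed the threshold.

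Nlrc5, the activator of class I promoters, had 17.0, 15.5, 15.6 and 11.99 FPKM in PTH libraries 1 to 4, against 15.8, 15.8 and 14.0 FPKM with PBS. The groups overlapped, and the log2 fold change was -0.02 ± 0.12 (SE) with a limma adjusted p of 0.917. The class II arm was at or near 0. Ciita, RT1-Da, RT1-Db2, RT1-DOa, RT1-DOb and RT1-Ha were listed at 0 in all libraries. Cd74, the invariant chain that guards the class II groove, had 0, 0.554, 0.302 and 1.45 FPKM with PTH, against 0.854, 1.21 and 0.270 FPKM with PBS. RT1-DMa was the one class II chain to reach a mean of 1 FPKM, with 0.474, 0.925, 2.35 and 0 FPKM with PTH, against 1.27, 2.21 and 1.20 FPKM with PBS (log2 fold change of -0.52 ± 0.39, SE, and adjusted p of 0.373). A second row of this symbol averaged 0.881 FPKM, with 0.980, 0 and 3.10 FPKM in PBS libraries 1 to 3. With both rows summed the log2 fold change of RT1-DMa was -0.71 (limma adjusted p of 0.159). RT1-Ba, RT1-Bb, RT1-Db1 and RT1-DMb stayed between 0 and 1.01 FPKM.

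The deposited calls were more numerous than those of limma. Among the 27 genes the authors' deposited table has an FDR under 0.05 for 5 higher genes (RT1-A2, RT1-A1, Tap1, Tapbp and Psmb10) and 2 lower genes (B2m and Erap1), against 7.86% and 15.4% of the same 10661 genes. B2m was the only one of these also called by limma.

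Of 15 tested genes of interferon receptors and signalling 3 fell and none rose, where 7.96% of all tested genes were called lower and 3.45% higher. At an unadjusted limma p under 0.05, 5 were lower and 2 higher, against 21.7% and 12.2% of all tested genes. The higher ones were Socs1, an inhibitor of the pathway, at 3.30 FPKM with PTH and 1.70 FPKM with PBS, and Irf9, a partner of the interferon-activated transcription factors, at 50.8 FPKM with PTH and 44.5 FPKM with PBS, and neither passed. The median log2 fold change was -0.12 over the list and -0.04 over all tested genes. Jak2, a kinase of the interferon-gamma receptor, had 15.3, 24.5, 17.9 and 19.7 FPKM in PTH libraries 1 to 4, against 35.3, 36.8 and 32.7 FPKM with PBS, and fell by 0.84 on the log2 scale (limma adjusted p of 0.0234). Ifngr2, a chain of that receptor, had 10.9, 13.7, 10.8 and 11.4 FPKM with PTH, against 17.5, 18.6 and 16.8 FPKM with PBS, and fell by 0.56 (0.0276). Irf1, a transcription factor that drives class I genes, had 42.5, 44.8, 42.4 and 44.5 FPKM with PTH, against 51.8, 55.8 and 50.01 FPKM with PBS, and fell by 0.26 (0.0425). No PTH library reached the PBS range for any of these genes. The calls of Jak2, Ifngr2 and Irf1 were lost without any one PBS library and without PTH library 3, those of Ifngr2 and Irf1 also without PTH library 4, and that of Irf1 also after each of the 3 other scalings. Their adjusted p then reached 0.129, 0.136 and 0.166 at most.

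In the list of peptide transport and loading 1 of 9 tested genes fell and none rose, near the shares of 7.96% lower and 3.45% higher among all tested genes. At an unadjusted limma p under 0.05, 2 of the 9 were higher and 2 lower, against 12.2% and 21.7% of all tested genes. The same 2 shares stand beside the unadjusted counts of the lists below. The gene that fell was Canx, which encodes calnexin, a chaperone of new heavy chains, at 132, 153, 139 and 143 FPKM with PTH and 165, 169 and 169.9 FPKM with PBS (log2 fold change of -0.25 ± 0.07, SE, limma adjusted p of 0.0486). The call was lost without any one PBS library, without PTH library 3 or 4, without a filter on low values and after each other scaling, with adjusted p up to 0.172. Calr, the related chaperone calreticulin, averaged 1398 FPKM with PTH and 1203 FPKM with PBS and had an adjusted p of 0.0632. Limma called 0 of the 4 constitutive proteasome counterparts (Psmb5, Psmb6, Psmb7 and Psme3), with 0 at an unadjusted p under 0.05. The smallest p among them was that of Psmb6, at 115 FPKM with PTH and 124 FPKM with PBS (adjusted p of 0.330). Among 7 tested transactivators and promoter factors, with Nlrc5 among them, limma called 0, and 2 were lower at an unadjusted p under 0.05. Nfya, a subunit of the CCAAT-binding factor, had the smallest p, at 14.1 FPKM with PTH and 17.6 FPKM with PBS (adjusted p of 0.116). Limma called 0 of 7 genes of endoplasmic reticulum quality control, with 1 higher at an unadjusted p under 0.05 (Hspa5, the chaperone BiP, adjusted p of 0.138), and 0 of 2 tested genes of class II presentation, with 1 lower (Ifi30, a thiol reductase, adjusted p of 0.123).

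Over all tested genes the log2 fold change was higher at higher GC content, so both are given for the processing genes. GC content was taken from human counterpart transcripts, which 9 of the 9 expressed genes outside RT1 and PA28 had and none of the 18 expressed RT1 genes, so the comparison is void for the heavy chains. B2m, at 40.5%, and Erap1, at 43.0%, were the lowest in GC content, and Psmb10 and Tapbp, at 60.4 and 60.7%, the highest. Among 9433 tested genes with a counterpart, the median log2 fold change was -0.26 in the lowest of 5 equal bins of GC content and 0.15 in the highest. After correction for GC content, chosen after the data were seen, the log2 fold change of B2m was -0.28 with a limma adjusted p of 0.0474, against 0.0326 over the same genes without correction. Erap1 then stood at -0.37 with a limma adjusted p of 0.0627, against 0.0428 over the same genes without correction. It was thus called over these genes and lost that call with the correction. Tapbp then stood at 0.29 (0.156), Psmb10 at 0.29 (0.0995), Tap1 at 0.23 (0.148) and Psmb9 at -0.28 (0.0912), called neither with nor without it. The correction moved B2m by more than 1.5 times, as it did Nlrc5, which went from -0.02 to -0.11. It left the direction of each of the 9 genes as it was. The part of GC content in the other values was not tested. The calls of Jak2, Ifngr2 and Irf1 held under it, and Canx lost its call (adjusted p of 0.129).

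**Figure D5:**
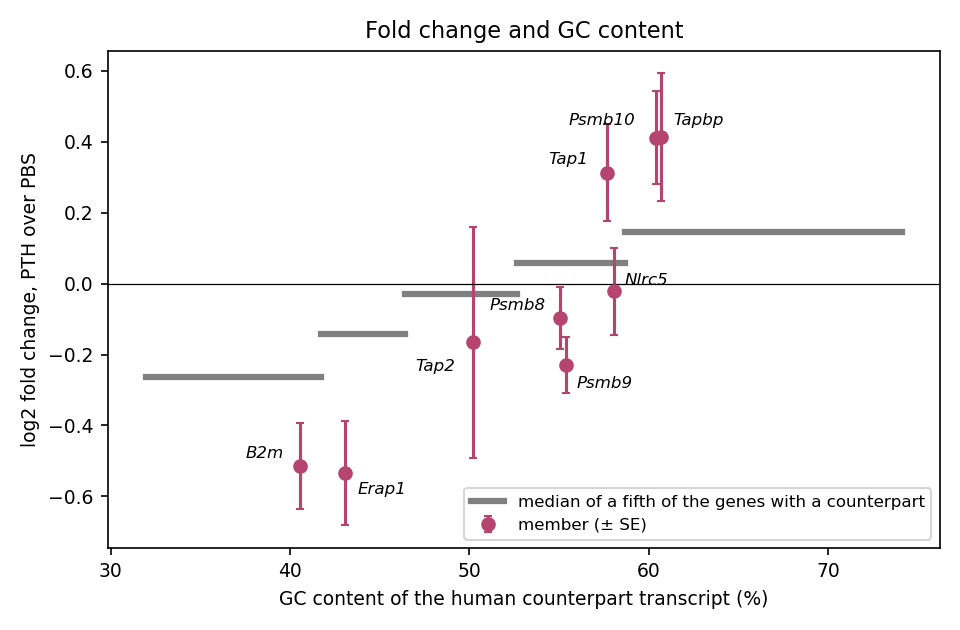
Log2 fold change, PTH over PBS, against transcript GC content (%, human counterpart) for the 9 expressed genes outside RT1 and PA28 (points, fitted value; bars, SE), with the median of each of 5 GC bins of the 9433 genes that have a counterpart (grey lines). B2m and Erap1 lie at the low-GC end below 0, and Tapbp and Psmb10 at the high-GC end above 0.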

How the data were processed

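RNA from 7 samples labelled LX2 was sequenced, 4 given PTH and 3 given PBS. The authors deposited FPKM values per gene and library, per the file headers, in tables of 14913 and 7149 rows, with their own log2 fold change, p-value and FDR. The authors deposited their log2 fold change as a score made by dividing mean FPKM with PTH by that with PBS and taking log2. The sources used here do not state this. It was read from the group means, which give the deposited score of RT1-A2 (0.71) and of RT1-CE6 (163). The submitters' processing notes name Bowtie 0.12.2 and the build mm8. The program behind the FPKM values is not given in the sources used here. No coordinates of the tables are printed, since their build is not named. No unmapped value columns were present. Of 85825 positive values 46, in 14 rows, lay under 1e-06 FPKM and cannot be whole multiples of a fragment. Whether the other values are such multiples was not tested, and no counts were recovered.

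Of rows sharing a symbol the one with the highest mean was kept, and rows lacking a symbol were left out. Groups were compared with limma (version 3.58.1, R version 4.3.3) on log2(FPKM + 1), with a variance trend, two-sided and without covariates, and the procedure was tested on simulated data. Alternatives were the pseudocount, the filter on low values, 3 other scalings, sample weights, summed rows, a replicate block, leaving out each library and, chosen after the data were seen, a GC correction. Values after ± are SD for FPKM and ratios and SE for log2 fold changes. Named genes were all expressed members, and from each other list up to 4 called genes or the one with the smallest p. Calr, Socs1, Irf9 and the library values of RT1-A1, RT1-CE3, RT1-CE5, RT1-CE7, RT1-T24-4 and RT1-DMa fall outside that rule, picked with their values in view. The members and lists were chosen with earlier results of these data known. The values of some genes in these lists are not reported here.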

Additional observations from a re-analysis of the deposited data

Results flagged for a closer look

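In the 4 PTH libraries 30 values were examined for a library far from the others, and 2 stood out. Chance alone would mark about 1 in 20 of such values, and all come from the same libraries. Tap2 had 9.47 FPKM in PTH library 1 and 3.03 to 3.66 FPKM in the others, a gap to the nearest that took up 0.903 of the group's range. Psmb9 had 85.6 FPKM in PTH library 1 and 99.7 to 102 FPKM in the others (0.864). PBS libraries lay at 4.21 to 5.54 FPKM for Tap2 and at 108 to 119.5 FPKM for Psmb9.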

How the results depend on the processing

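Over all genes 368 were called higher and 849 lower. Counts were 212 and 553 without a filter on low values, 663 and 572 after quantile normalization, 593 and 557 after median centring, 865 and 461 at the same FPKM sum, 3108 and 4309 with sample weights, whose estimation stopped before it converged, and 479 and 547 after GC correction of 9433 genes. With 1 library left out they ran from 3 to 828 higher and from 25 to 1924 lower, the lowest without PBS library 1 and the highest without PTH library 2. Of the 27 genes compared, 1 was called higher and 1 lower. These counts were 1 and 2 with a pseudocount of 5, 1 and 0 without a filter, 2 and 2 at a mean of at least 5 FPKM, 3 and 0 after quantile normalization, 2 and 1 after median centring, 5 and 0 at the same FPKM sum and 11 and 7 with sample weights. They ran from 0 to 6 higher and from 0 to 2 lower with 1 library left out, where fewer samples also weaken the test.

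Whether same-numbered libraries form pairs is not known. Their deviations from the group means had correlations of -0.0072, 0.0011 and -0.0368, which cannot settle it with so few libraries. With the replicate block, which leaves PTH library 4 without a partner, 3 genes were higher and 17 lower, and 0 and 0 of the 27, with an adjusted p of 0.0922 for B2m and 0.0844 for RT1-CE1. Jak2, Ifngr2, Irf1 and Canx lost their calls under it too.

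Some genes that were not called changed sign, most of them near 0, with RT1-DMa at -0.52 the exception. Psmb8 and RT1-T24-1 were called lower with sample weights (adjusted p of 0.00205 and 0.0122). With the block RT1-S3 was 0.0561, RT1-T24-1 0.00692, Nlrc5 0.0757, RT1-M3-1 0.0246, RT1-CE3 0.439 and RT1-M6-1 0.0994. After quantile normalization, median centring and at the same FPKM sum RT1-S3 was 0.0549, 0.0644 and 0.0910, and Nlrc5 0.0413, 0.0491 and 0.0702. At the same sum Psmb8 was 0.000205 and RT1-T24-1 0.0218. With sample weights RT1-N3 was -0.00904, RT1-CE4 -0.000874 and RT1-DMa 0.425, and with a pseudocount of 5 RT1-CE3 was 0.0173. With 1 library left out RT1-N3 ran from -0.0019 to 0.0785, RT1-CE4 from -0.000139 to 0.153, RT1-S3 from -0.111 to 0.0561, RT1-T24-1 from -0.223 to 0.0342, Nlrc5 from -0.0824 to 0.0757, RT1-M3-1 from -0.354 to 0.0942, RT1-CE3 from -0.536 to 0.439 and RT1-M6-1 from -0.495 to 0.0994. The cause of these changes was not tested. The depth behind each value is unknown.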
